A study of Mus musculus with 34 samples.

Results

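The difference between the fluoxetine effect in mossy cells and that in hippocampus was measured gene by gene in wild-type mice. For each gene the log2 change from vehicle to fluoxetine in hippocampus was subtracted from the change in mossy cells. A positive value means that the change with fluoxetine was more positive in mossy cells than in hippocampus, whatever the level in each. Genes called higher or lower for the difference are so in this value. All 26 of the 34 libraries of the study that were labelled mossy cells or hippocampus entered the comparison. They fell into 4 groups, with 6 vehicle and 7 fluoxetine libraries of mossy cells, and 6 vehicle and 7 fluoxetine libraries of hippocampus. All carried the genotype label WT, and the labels used here give neither the line that tagged the ribosomes, nor the age, nor the dose or length of treatment. The other 8 libraries, of granule cells, were not used here.

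Mossy cells are glutamatergic neurons of the dentate hilus that excite granule cells and local interneurons. Fluoxetine is a selective serotonin reuptake inhibitor, which raises extracellular serotonin by blocking the serotonin transporter. Translating ribosome affinity purification pulls down tagged ribosomes of a chosen cell type and so samples the RNA bound to them, whereas RNA of whole tissue also holds nuclear transcripts that no ribosome carries.

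The libraries held 23.6 to 45 M counts. Genes with at least 1 count numbered 15232 to 16619 in mossy cells and 17600 to 18210 in hippocampus. The ribosomal precursor Rn45s took 17.0% ± 2.21 (SD, n = 6) of the counts in mossy-cell vehicle libraries and 20% ± 1.87 (SD, n = 7) in fluoxetine libraries, against 12.1% ± 0.476 (SD, n = 6) and 12.8% ± 1.27 (SD, n = 7) in hippocampus. The nuclear transcript Malat1 took 0.006% to 0.021% of the counts in mossy-cell libraries and 0.87% to 2.48% in hippocampal libraries. The protocol label names the same ribosome pull-down for both sources, and whether the hippocampal libraries were pulled down or were input could not be told from the labels. In bulk libraries, fewer cells of a type and less RNA per cell cannot be told apart.

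Markers of mossy cells summed to 489 to 659 CPM (the count relative to the size of its library, with sizes scaled by the trimmed mean of M values, TMM) in mossy-cell vehicle libraries and to 79.1 to 84.7 CPM in hippocampal vehicle libraries. Markers of interneurons were also higher in the mossy-cell vehicle libraries, at 3690 to 4950 CPM against 682 to 736 CPM. So were those of CA1 and CA2 cells (728 to 1160 against 514 to 615 CPM) and immature granule cells (1120 to 1210 against 552 to 584 CPM). Markers of granule cells (349 to 402 against 929 to 1030 CPM) and CA3 cells (402 to 499 against 522 to 600 CPM) were lower. Oligodendrocyte markers summed to 102 to 173 CPM in mossy-cell and 966 to 1340 CPM in hippocampal vehicle libraries. In fluoxetine library number 4 the microglial markers reached 110 CPM in mossy cells, where the other 6 fluoxetine libraries held 5.47 to 28.3 CPM. The hippocampal library with the same number reached 289 CPM, where the others held 48.5 to 114 CPM. The choroid plexus transcript Ttr had 1463 to 8118 counts in mossy-cell vehicle libraries 1, 2 and 4 and 1 to 35 in vehicle libraries 3, 5 and 6. In hippocampus the same numbers split the same way, at 65506 to 204787 counts against 83 to 515.

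**Figure D1:**
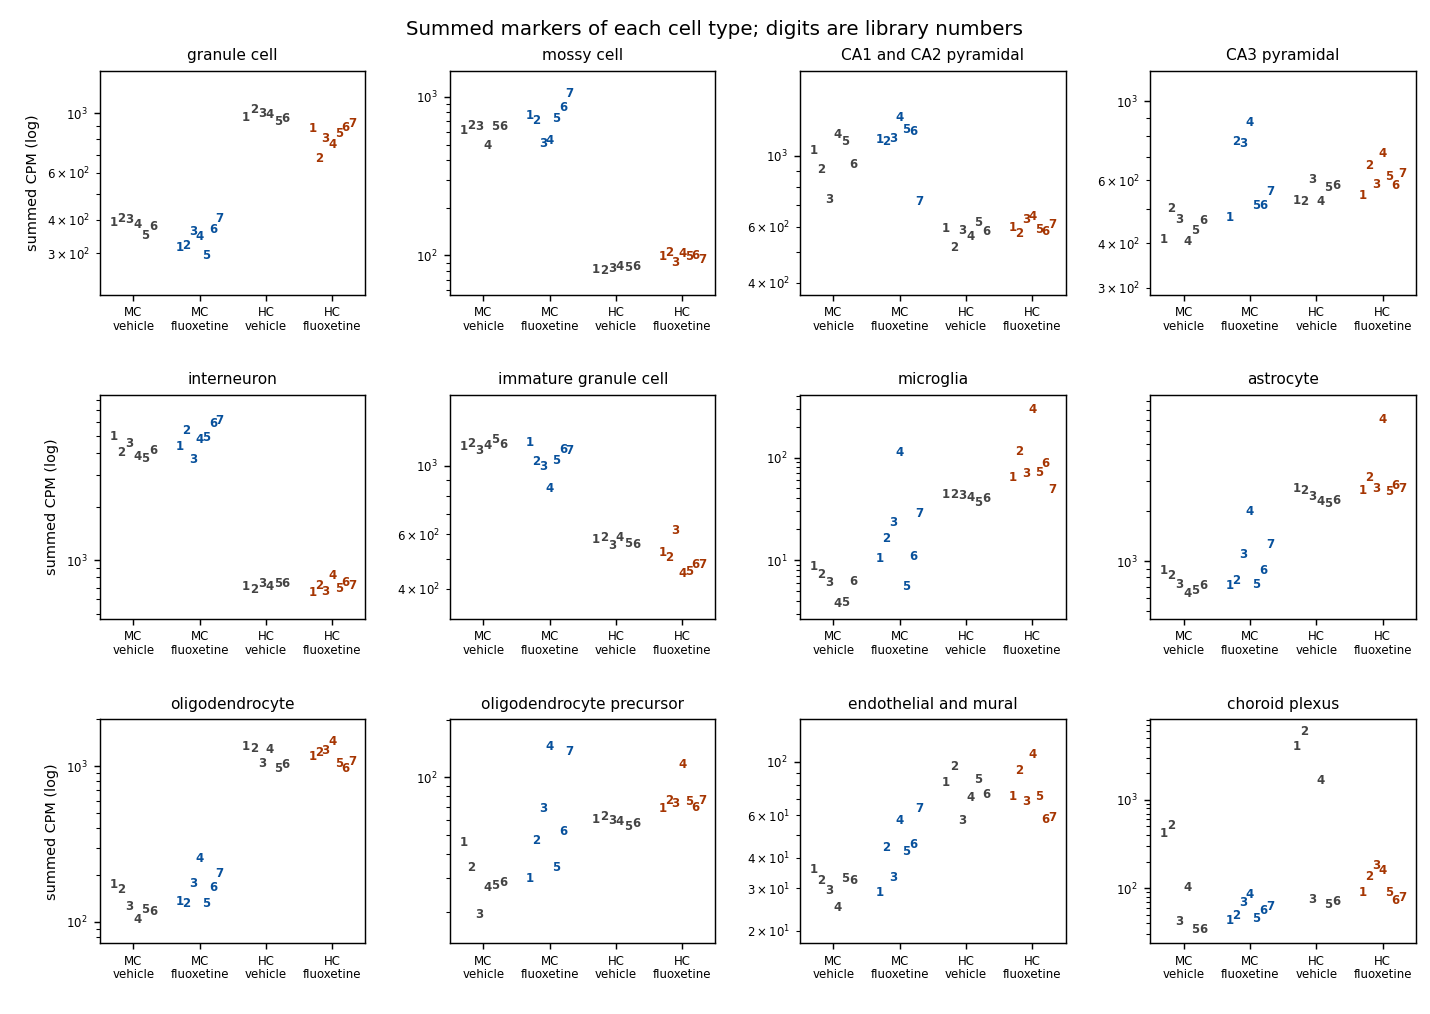
Summed CPM (log axis) of the markers of 12 cell types in each of the 26 libraries, by group (MC, mossy cells; HC, hippocampus), each library drawn as its number in the labels. Fluoxetine library 4 stands highest for microglia and astrocytes in both sources, and vehicle libraries 1, 2 and 4 stand highest for choroid plexus in both.

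Few genes responded differently in the 2 sources when the 4 groups were compared as independent libraries. In this test, edgeR's quasi-likelihood test with Benjamini-Hochberg adjustment over 15922 genes and a threshold of 0.05, 7 genes passed (0.044% of those tested). The fluoxetine effect was higher in mossy cells than in hippocampus for Ly6e (1 gene, 0.00628%). It was lower for Nvl, Srek1, D4Wsu53e, Uvssa, A130077B15Rik and Gm4461 (6 genes, 0.0377%). In all 6 lower genes the mossy-cell change was negative and the hippocampal change was positive, with both called for Nvl and Srek1. Choosing genes by a negative difference favours these signs. At an unadjusted p below 0.05 there were 1790 genes.

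The labels number the libraries from 1 within each treatment in both sources, and same-numbered libraries of the 2 sources deviated together, by a correlation above 0.1 in 13 of 13 pairs over the more abundant genes but in 7 of 13 over all genes. The comparison was therefore also made within numbered pairs. With 1 term for each of the 13 pairs, 116 genes passed (0.729%). The fluoxetine effect was higher in mossy cells than in hippocampus for 50 (0.314%) and lower for 66 (0.415%). With upper quartile scaling the paired calls were 12 higher and 80 lower, so the number of higher calls rested on the scaling. The 116 genes held 6 of the 7 genes above. The labels do not say that a number marks 1 animal. Both counts moved widely with single libraries, from 2 to 41 genes without pairs and from 39 to 388 with them. Without vehicle pairs 1, 2 and 4, the numbers with high Ttr counts, 14 genes passed with pairs, and without vehicle pairs 3, 5 and 6, 2 passed. All 116 genes kept their sign in these fits, which reuse libraries that chose the genes, so the kept signs are no independent support.

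Of the 66 lower genes, 43 had risen in hippocampus and were not called in mossy cells, 13 had fallen in mossy cells and were not called in hippocampus, and 5 had fallen in mossy cells and risen in hippocampus. A further 1 was called in the same direction in both, and 4 were called in neither. By sign alone, 60 of the 66 had a negative effect in mossy cells and a positive one in hippocampus. Choosing genes by a negative difference favours these signs, so the 60 are not a result about opposite regulation. Of the 50 higher genes, 27 had risen in mossy cells alone, 8 had fallen in hippocampus alone, 10 had changed in the same direction in both and 5 were called in neither.

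**Figure D2:**
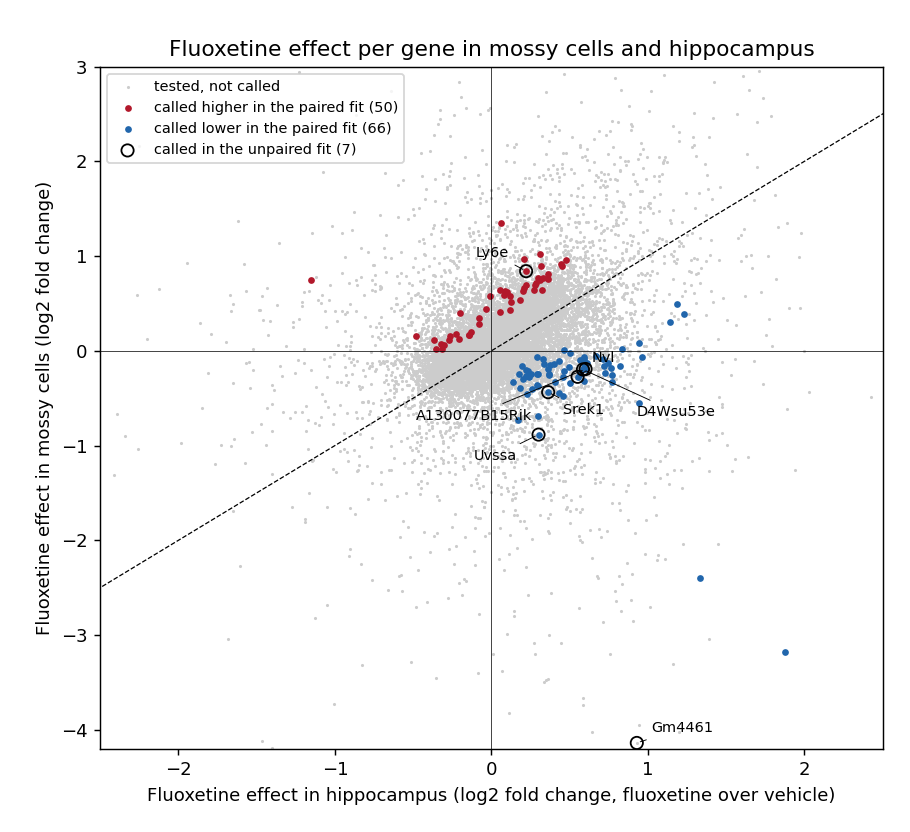
Log2 fluoxetine effect of the tested genes in hippocampus (x axis) and mossy cells (y axis), with a dashed line where they are equal. Of the 15922 genes, 69 lie outside the axes and are not seen, among them Ttr, which was called higher with pairs. The 50 genes called higher with pairs lie above the line and the 66 called lower lie below it. Most of the 66 lie at negative mossy-cell and positive hippocampal values, which their choice by the difference favours. Open circles mark the 7 genes called without pairs.

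The effects themselves passed in far more genes. In mossy cells 2656 genes changed with fluoxetine (16.7%), 1853 up (11.6%) and 803 down (5.04%). With mossy cells fitted alone, 1146 went up and 179 down. In hippocampus 2093 changed (13.1%), 786 up (4.94%) and 1307 down (8.21%). The direction of the hippocampal calls depended on the scaling, with 948 up and 852 down when TMM was computed within each source. With hippocampus fitted alone, 2411 went up and 2294 down. A fit of 1 source alone also has its own gene filter and its own estimate of the spread. It called 1325 genes in mossy cells and 4705 in hippocampus. Which source had more calls thus depended on whether they were fitted together. An effect called in 1 source seldom passed the test of the difference. Of 1340 genes that rose in mossy cells and were not called in hippocampus, 1 passed without pairs and 27 with pairs. Of 268 genes that rose in hippocampus and were not called in mossy cells, 2 and 43 passed. Both effects were called in opposite directions in 5 genes, which all fell in mossy cells and rose in hippocampus, and 0 genes showed the converse.

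A set of 3 genes that were lower without pairs is shown with the 300 bases around their RefSeq start site, together with those of Klk8 and Cckbr, which had the largest positive differences among the protein-coding genes named by size with pairs, apart from Ttr. Each runs 5′ to 3′ from 250 bases before the start to 50 after it on the strand of the gene (RefSeq, GRCm38.p6). Capitals mark CCAAT and GGGCGG on either strand, which 37.4% and 35.7% of the 32851 RefSeq promoters of this length hold. TATAAA (13.6%) and TGACGTCA, the cAMP response element (1.79%), were searched on both strands and are not among these letters. Nvl lies at chr1:181144155-181144454 (minus strand), Srek1 at chr13:103774559-103774858 (minus), D4Wsu53e, whose RefSeq symbol is Rsrp1, at chr4:134923375-134923674 (plus), Klk8 at chr7:43797327-43797626 (plus) and Cckbr at chr7:105425481-105425780 (plus).
Nvl: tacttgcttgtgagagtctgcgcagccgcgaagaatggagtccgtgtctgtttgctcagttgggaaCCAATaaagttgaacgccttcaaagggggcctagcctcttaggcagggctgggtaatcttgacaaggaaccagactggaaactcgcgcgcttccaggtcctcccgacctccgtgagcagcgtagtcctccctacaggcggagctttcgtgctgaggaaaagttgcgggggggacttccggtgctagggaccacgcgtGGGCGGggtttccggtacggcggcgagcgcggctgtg
Srek1: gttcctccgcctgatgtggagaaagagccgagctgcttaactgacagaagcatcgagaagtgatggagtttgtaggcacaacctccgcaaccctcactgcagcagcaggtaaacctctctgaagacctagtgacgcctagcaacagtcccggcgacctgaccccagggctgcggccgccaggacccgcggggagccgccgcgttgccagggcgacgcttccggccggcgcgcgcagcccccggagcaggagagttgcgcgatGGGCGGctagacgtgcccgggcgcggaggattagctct
D4Wsu53e: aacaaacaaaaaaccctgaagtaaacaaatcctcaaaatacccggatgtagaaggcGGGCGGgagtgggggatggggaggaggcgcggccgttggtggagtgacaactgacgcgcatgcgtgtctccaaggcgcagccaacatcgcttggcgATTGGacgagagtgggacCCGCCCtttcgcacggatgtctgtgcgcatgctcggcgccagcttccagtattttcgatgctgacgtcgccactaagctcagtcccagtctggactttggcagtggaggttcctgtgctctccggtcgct
Klk8: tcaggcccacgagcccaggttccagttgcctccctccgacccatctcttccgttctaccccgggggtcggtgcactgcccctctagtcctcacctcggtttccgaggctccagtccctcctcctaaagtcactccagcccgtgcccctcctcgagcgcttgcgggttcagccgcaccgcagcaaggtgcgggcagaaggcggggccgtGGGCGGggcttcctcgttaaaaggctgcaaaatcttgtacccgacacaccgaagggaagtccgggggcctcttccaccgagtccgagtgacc
Cckbr: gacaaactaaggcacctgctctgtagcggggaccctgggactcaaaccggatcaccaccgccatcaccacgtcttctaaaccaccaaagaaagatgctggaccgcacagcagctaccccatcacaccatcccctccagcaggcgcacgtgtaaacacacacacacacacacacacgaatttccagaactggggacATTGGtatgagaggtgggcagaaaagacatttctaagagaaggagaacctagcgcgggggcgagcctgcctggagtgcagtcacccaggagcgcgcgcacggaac

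The GGGCGG letters occurred in Nvl, Srek1, D4Wsu53e and Klk8, and CCAAT in Nvl, D4Wsu53e and Cckbr.

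Nvl encodes a nuclear AAA ATPase that acts in the assembly of the large ribosomal subunit. The gene lies at chr1:181087138-181144204 on the minus strand. Its level was 13.1, 14.6 and 17.9 CPM (lowest, median, highest) in mossy-cell vehicle libraries and 10.8, 12 and 14 CPM after fluoxetine. In hippocampus it was 17.0, 18.4 and 20.5 CPM with vehicle and 22.3, 27.5 and 29.8 CPM with fluoxetine. The hippocampal groups did not overlap, and 5 of 7 mossy-cell fluoxetine libraries lay below every vehicle library. Nvl fell by 0.27 ± 0.09 (SE) on the log2 scale in mossy cells (adjusted p = 0.0408, called in 16 of 26 fits without 1 library) and rose by 0.55 ± 0.09 in hippocampus (adjusted p = 0.000856). The difference was -0.83 ± 0.13 (adjusted p = 0.00714 without pairs and 0.00777 with pairs), and it was called in 26 of 26 fits that left out 1 library.

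Srek1, a serine- and arginine-rich regulator of splicing, lies at chr13:103739348-103774608 on the minus strand. Mossy-cell vehicle libraries held 37.4, 41.0 and 45.3 CPM of it and fluoxetine libraries 21.0, 31.9 and 34.5 CPM. The hippocampal values were 55.7, 63.4 and 67.5 CPM with vehicle and 68.0, 80.5 and 94.8 CPM with fluoxetine. Neither pair of groups overlapped, and the directions were opposite. Srek1 fell by 0.44 ± 0.09 in mossy cells (adjusted p = 0.00145) and rose by 0.36 ± 0.09 in hippocampus (adjusted p = 0.0117). The difference of -0.80 ± 0.13 (adjusted p = 0.00714) was called in 26 of 26 fits without 1 library and in 13 of 13 without 1 pair.

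D4Wsu53e, now Rsrp1 in RefSeq, encodes a protein rich in arginine and serine. It stood at 43.7, 57.2 and 68.1 CPM in mossy-cell vehicle libraries and at 41.5, 51.9 and 59.3 CPM after fluoxetine, so these groups overlapped. In hippocampus it went from 66.7, 75.2 and 93.3 CPM to 97.9, 117 and 134 CPM, with no overlap. The mossy-cell change of -0.20 ± 0.10 did not pass (adjusted p = 0.182), and the hippocampal rise was 0.58 ± 0.10 (adjusted p = 0.00091). The difference was -0.78 ± 0.14 (adjusted p = 0.0264), called in 17 of 26 fits without 1 library.

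Uvssa acts in transcription-coupled DNA repair. It measured 3.68, 4.58 and 5.34 CPM in mossy-cell vehicle libraries and 1.45, 2.38 and 3.30 CPM after fluoxetine, with no overlap. In hippocampus the values were 6.15, 7.40 and 8.12 CPM with vehicle and 7.56, 8.53 and 11.3 CPM with fluoxetine, and 6 of 7 fluoxetine libraries lay above every vehicle library. The fall of 0.88 ± 0.16 in mossy cells passed (adjusted p = 0.000337), the hippocampal change of 0.30 ± 0.15 did not (adjusted p = 0.192), and the difference was -1.19 ± 0.22 (adjusted p = 0.0351), called in 14 of 26 fits without 1 library and in 13 of 13 without 1 pair.

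A130077B15Rik, a long intergenic RNA, rose by 0.60 ± 0.11 in hippocampus (adjusted p = 0.00128), from a median of 84.3 to 126 CPM, and changed by -0.19 ± 0.11 in mossy cells, from 22.6 to 18.9 CPM (adjusted p = 0.244). The difference was -0.79 ± 0.15 (adjusted p = 0.045), called in 10 of 26 fits without 1 library. Gm4461, which RefSeq names Olfr1564, was near the limit of detection. Mossy-cell vehicle libraries 1 to 6 held 2, 5, 15, 5, 2 and 0 counts of it, and the 7 fluoxetine libraries held 1 count in all. Its fitted difference of -5.07 ± 1.0 (adjusted p = 0.0464) depends on the prior count, and with pairs it did not pass (adjusted p = 0.06).

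Ly6e encodes a surface protein of the Ly6 family that is induced by interferon. It lies at chr15:74955051-74959905 on the plus strand. Its level was 170, 195 and 226 CPM in mossy-cell vehicle libraries and 294, 354 and 408 CPM after fluoxetine, with no overlap. In hippocampus the groups did overlap, at 168, 182 and 200 CPM against 184, 212 and 249 CPM. The rise of 0.84 ± 0.09 in mossy cells passed (adjusted p = 1.8e-06), the hippocampal change of 0.22 ± 0.09 did not (adjusted p = 0.0845), and the difference was 0.62 ± 0.12 (adjusted p = 0.0464; 0.00459 with pairs). It was called in 8 of 26 fits that left out 1 library and in 13 of 13 that left out 1 pair. Microglial markers moved in the same direction, from 3.76 to 8.65 CPM with vehicle to 5.47 to 110 CPM with fluoxetine in mossy cells, and from 35.8 to 43.5 CPM to 48.5 to 289 CPM in hippocampus. Their part in the Ly6e result was not tested.

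**Figure D3:**
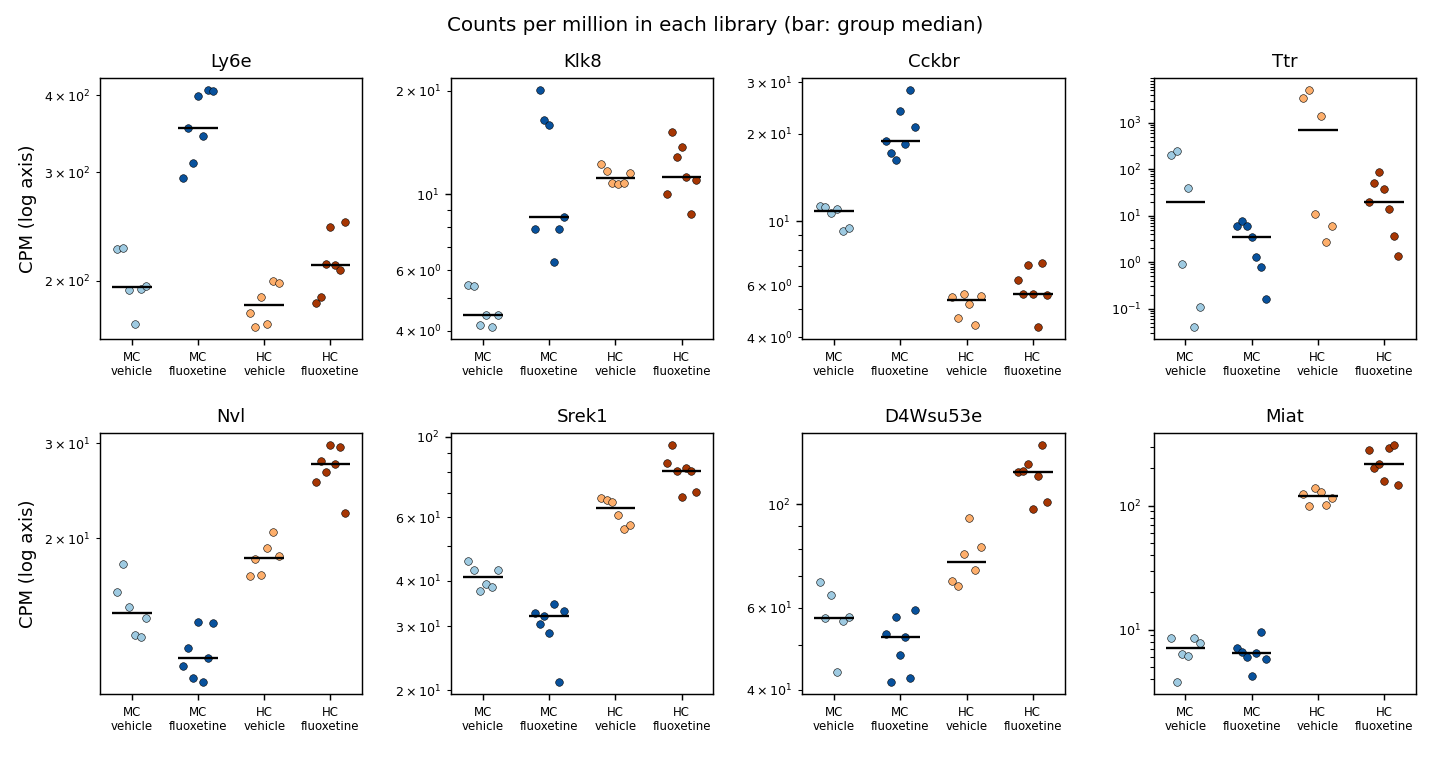
CPM of 8 genes in each library (points, log axis) with the median of each group (bar), by source and treatment. Ly6e, Klk8 and Cckbr stand higher after fluoxetine in mossy cells, whereas Nvl, Srek1, D4Wsu53e and Miat stand higher after fluoxetine in hippocampus; Ttr splits the vehicle libraries of both sources.

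Among the higher genes named by the rule with pairs, which takes genes whose average log2 CPM is 3 or more, the largest difference after Ttr was that of Klk8, which encodes neuropsin, a secreted serine protease of the hippocampus. Klk8 measured 4.10, 4.45 and 5.45 CPM in mossy-cell vehicle libraries and 6.35, 8.57 and 20.1 CPM after fluoxetine, with no overlap. The hippocampal groups overlapped fully, at 10.7, 11.2 and 12.2 CPM and 8.74, 11.2 and 15.2 CPM. Klk8 rose by 1.35 ± 0.21 in mossy cells (adjusted p = 5.61e-05) against 0.06 ± 0.20 in hippocampus (adjusted p = 0.874). The difference was 1.20 ± 0.20 with pairs (adjusted p = 0.00553) and 1.29 ± 0.28 without (adjusted p = 0.0758). Mossy-cell fluoxetine libraries 2, 3 and 4 held 15.9 to 20.1 CPM and the other 4 held 6.35 to 8.57 CPM. The summed CA3 markers split the same libraries, at 758 to 869 CPM against 472 to 556 CPM, and their part in the Klk8 result was not tested.

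Cckbr encodes the cholecystokinin B receptor. It went from 9.27, 10.8 and 11.3 CPM to 16.2, 18.9 and 28.3 CPM in mossy cells, with no overlap, and from 4.42, 5.37 and 5.62 CPM to 4.33, 5.65 and 7.21 CPM in hippocampus. The rise in mossy cells was 0.97 ± 0.13 (adjusted p = 1.82e-05), the hippocampal change was 0.21 ± 0.13 (adjusted p = 0.304), and the difference with pairs was 0.75 ± 0.17 (adjusted p = 0.0437). It was called in 4 of 13 fits without 1 pair and not when an offset for the GC content and length of the transcripts was fitted together with the pairs (adjusted p = 0.0727). Its ligand Cck was not called, with a rise of 0.81 ± 0.12 in mossy cells (adjusted p = 3.67e-05), a change of 0.26 ± 0.12 in hippocampus (adjusted p = 0.135) and a difference of 0.53 ± 0.17 with pairs (adjusted p = 0.142).

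Of 25 genes of synaptic vesicles and release, 1 was called for the difference with pairs, and of 19 postsynaptic scaffolds also 1, both higher, against 0.314% of all genes. In mossy cells 9 of the 25 rose (11.6% of all genes) and 1 fell (5.04%), and in hippocampus 6 rose (4.94%) and 4 fell (8.21%). Syp, which encodes the vesicle protein synaptophysin, went from a median of 1050 to 1740 CPM in mossy cells and from 794 to 944 CPM in hippocampus, with no overlap in either. It rose by 0.69 ± 0.07 and 0.28 ± 0.07, and the difference with pairs was 0.41 ± 0.08 (adjusted p = 0.0192; 0.072 with the GC content and length offset). Dagla, which makes an endocannabinoid, rose by 0.92 ± 0.10 and 0.44 ± 0.10, with a difference of 0.46 ± 0.09 (adjusted p = 0.0178). For both, all 7 fluoxetine pairs had a higher ratio of mossy cells to hippocampus than any vehicle pair.

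Homer3, a postsynaptic scaffold protein, rose by 0.58 ± 0.12 in mossy cells (adjusted p = 0.00153) and changed by -0.01 ± 0.12 in hippocampus (adjusted p = 0.978). Nrgn, which encodes the calmodulin-binding protein neurogranin, rose by 0.40 ± 0.11 in mossy cells (adjusted p = 0.0104) and changed by -0.20 ± 0.11 in hippocampus (adjusted p = 0.216). Their differences with pairs were 0.58 ± 0.12 (adjusted p = 0.026) and 0.61 ± 0.13 (adjusted p = 0.0239). Each was called in 7 of 13 fits without 1 pair, and neither with the GC content and length offset (adjusted p = 0.106 and 0.0595). Homer3 is also a marker of CA3 cells in the list used here. In it 2 of 8 markers, Homer3 and Bok, were called with pairs, against 0.314% of all genes called higher. The median difference over the 8 was 0.40, against 0.065 over all genes tested. Bok, a member of the Bcl-2 family, had a difference of 0.46 ± 0.09 (adjusted p = 0.0224; 0.139 with that offset).

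Other genes with a higher fluoxetine effect in mossy cells than in hippocampus covered several roles. Islr2, a leucine-rich repeat protein of the axon membrane, had a difference of 0.66 ± 0.15 (adjusted p = 0.0467), called in 3 of 13 fits without 1 pair. Igsf8, an immunoglobulin-family membrane protein, had 0.48 ± 0.08 (adjusted p = 0.00696), called in 13 of 13, and its counts are uncertain without the strand setting. Camta2, a calmodulin-binding transcription activator, had 0.34 ± 0.07 (adjusted p = 0.0205). Wscd1 had 0.56 ± 0.11 (adjusted p = 0.0162), and the galactosyltransferase gene B3galt5 0.58 ± 0.13 (adjusted p = 0.0467), called in 4 of 13 fits. The histone gene Hist1h2bc differed by 0.62 ± 0.13 (adjusted p = 0.0288) with a hippocampal effect of -0.48 ± 0.12 (adjusted p = 0.0116) and 0.16 ± 0.13 in mossy cells (adjusted p = 0.418). With the GC content and length offset, of these genes Hist1h2bc was called and Islr2, Igsf8, Camta2, Wscd1 and B3galt5 were not (adjusted p from 0.0563 to 0.093). Islr2 overlaps Islr on the same strand, so their reads could not be told apart here.

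Ttr, the choroid plexus carrier of thyroid hormone, was called with pairs alone. Its difference was 1.28 ± 1.80 without pairs (adjusted p = 0.823) and 1.55 ± 0.31 with pairs (adjusted p = 0.0205). It fell in both, with effects of -4.48 ± 1.41 in mossy cells (adjusted p = 0.0273) and -5.76 ± 1.41 in hippocampus (adjusted p = 0.0101), and in both the vehicle side held the 3 libraries with high counts given above. The mossy-cell call was lost without mossy-cell vehicle library 1 or 2. Of 9 choroid plexus markers, 4 fell in mossy cells (5.04% of all genes) and 8 in hippocampus (8.21%). Ttr was the 1 that was called for the difference with pairs, where 0.314% of all genes were called higher. The median difference over the 9 was 0.92 without pairs, and ranged from 0.21 to 1.61 without 1 library.

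The lower genes with pairs held long noncoding RNAs that stay in the nucleus. Of 9 such RNAs tested, Miat, Kcnq1ot1, Meg3 and Snhg11 were called lower, none was called higher, and 5 rose in hippocampus. Of all genes, 0.415% were called lower with pairs and 4.94% rose in hippocampus. The median difference over the 9 was -0.83, against 0.06 over all genes tested, with medians of 0.00 in mossy cells and 0.73 in hippocampus. In 3 of the 9 the difference was positive, at most 0.48. Malat1, which was 1 of these, rose in both, by 0.68 in mossy cells (adjusted p = 0.00421) and 0.61 in hippocampus (adjusted p = 0.0146). Its difference was 0.07 ± 0.23 (adjusted p = 0.934).

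Miat measured 3.76, 7.08 and 8.55 CPM in mossy-cell vehicle libraries and 4.21, 6.49 and 9.60 CPM after fluoxetine. In hippocampus it measured 100, 120 and 138 CPM with vehicle and 148, 215 and 309 CPM with fluoxetine. The mossy-cell groups overlapped and the hippocampal groups did not. The hippocampal rise was 0.96 ± 0.17 (adjusted p = 0.0012), and the difference with pairs was -0.97 ± 0.16 (adjusted p = 0.00553).

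Meg3 in hippocampus rose from a median of 1010 to 2430 CPM, by 1.14 ± 0.16 (adjusted p = 0.000272), and in mossy cells its medians were 46 and 49.4 CPM, with a change of 0.31 ± 0.16 (adjusted p = 0.199). Snhg11, a host gene of small nucleolar RNAs, rose in hippocampus from a median of 348 to 864 CPM, by 1.23 ± 0.17 (adjusted p = 0.000142), against a change of 0.39 ± 0.17 in mossy cells (adjusted p = 0.106). Their differences with pairs were -0.84 ± 0.16 (adjusted p = 0.0108) and -0.84 ± 0.17 (adjusted p = 0.0247).

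Kcnq1ot1, the imprinted antisense RNA of the Kcnq1 locus, rose by 0.73 ± 0.14 in hippocampus (adjusted p = 0.00185) and changed by -0.23 ± 0.14 in mossy cells (adjusted p = 0.265), with a difference of -0.97 ± 0.16 (adjusted p = 0.00553). Its reads could not be told apart from those of Kcnq1, since no source used here states the strand setting. Its medians in vehicle libraries were 26.5 CPM in mossy cells and 142 CPM in hippocampus, and the other 3 called RNAs were also far lower in mossy cells with vehicle. The part of unbound nuclear RNA in these results was not tested.

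Other lower genes act on RNA or ribosomes. Mdn1, an AAA ATPase of large-subunit assembly like Nvl, rose by 0.74 ± 0.15 in hippocampus (adjusted p = 0.00284), from a median of 39.0 to 65.4 CPM, and changed by -0.12 ± 0.15 in mossy cells (adjusted p = 0.625). Its difference with pairs was -0.88 ± 0.14 (adjusted p = 0.00553). Rbm5, a splicing factor, fell by 0.37 ± 0.11 in mossy cells (adjusted p = 0.0187), and its hippocampal change of 0.29 ± 0.11 did not pass (adjusted p = 0.0688). Luc7l3, a component of the spliceosome, fell by 0.28 ± 0.09 in mossy cells (adjusted p = 0.0225), with 0.24 ± 0.09 in hippocampus (adjusted p = 0.0573). Their differences with pairs were -0.68 ± 0.11 and -0.53 ± 0.09 (adjusted p = 0.00553 and 0.00777). Taf1d, a factor of RNA polymerase I whose gene overlaps snoRNA genes on the same strand, had -1.02 ± 0.24 (adjusted p = 0.0469). Splicing factors as a list, which does not hold these genes, had a median difference of 0.04. In it 0 of 48 members were called, near the 0.729% of all genes called with pairs.

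Wsb1, an adaptor of a ubiquitin ligase, rose by 0.77 ± 0.14 in hippocampus (adjusted p = 0.00171), from a median of 23.1 to 41.4 CPM with no overlap, and had medians of 4.18 and 3.08 CPM in mossy cells. Its difference with pairs was -1.05 ± 0.19 (adjusted p = 0.00858). Ryr3, a calcium release channel, rose by 0.94 ± 0.16 in hippocampus (adjusted p = 0.00108) and changed by 0.09 ± 0.17 in mossy cells (adjusted p = 0.773). Its difference was -0.88 ± 0.18 (adjusted p = 0.0248). Dcdc2c fell in mossy cells by 0.47 ± 0.17 (adjusted p = 0.0479) and rose in hippocampus by 0.46 ± 0.16 (adjusted p = 0.0461), called in 6 and 14 of 26 fits without 1 library. Its difference with pairs was -0.93 (adjusted p = 0.00553), and all 7 fluoxetine pairs had a lower ratio of mossy cells to hippocampus than any vehicle pair.

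The remaining lower genes named by the rule had differences between -0.85 and -0.60. Ttc14 and Olfr613, an olfactory receptor gene, each had -0.85 (adjusted p = 0.00983 and 0.00553), and the zinc finger genes Zfp488 and Zfp277 had -0.67 and -0.60 (adjusted p = 0.00696 and 0.00459). Dcx, a microtubule-binding protein of immature neurons, had -0.66 ± 0.14 (adjusted p = 0.034). It was the 1 of 10 immature granule cell markers that was called with pairs, against 0.415% of all genes called lower. Neither effect of Dcx passed.

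The called genes differed from all tested genes in abundance, length and base composition. The median GC content of the transcripts was 56.2% for the 50 higher genes, 45.3% for the 66 lower genes and 50.7% for all genes. Median transcript lengths were 1225, 1656 and 1525 bases. The median of the average log2 CPM was 7.07, 5.26 and 3.84, in the same order. All 50 higher genes were protein-coding, and of the 66 lower genes 50 were protein-coding, 9 long noncoding and 3 pseudogenes. Of all 15922 tested genes, 14628 were protein-coding, 657 long noncoding and 137 pseudogenes. With an offset for GC content and length fitted together with the pairs, 75 genes passed, 20 higher and 55 lower, of which 69 were among the 116. Of the 21 higher genes named here 12 lost the call with that offset, and of 20 lower genes with a value 1 did. Leaving out 1 pair ended the call in at least 1 fit for 16 of 21 higher and 5 of 21 lower genes.

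Nuclear-encoded subunits of oxidative phosphorylation had a positive difference in 73 of 76 members, with a median of 0.18 against 0.06 over all genes, of which 60% were positive. Here 39 members fell in hippocampus (8.21% of all genes did) and 0 rose (4.94%), with a median of -0.24. In mossy cells 9 fell (5.04% of all genes) and 3 rose (11.6%), with a median of -0.05. With pairs, 2 members were called higher, against 0.314% of all genes. Ndufa8, a subunit of complex I, fell by 0.35 ± 0.06 in hippocampus (adjusted p = 0.000856), from a median of 71.0 to 54.1 CPM, and changed by 0.02 ± 0.06 in mossy cells (adjusted p = 0.882), with a difference of 0.37 ± 0.07 (adjusted p = 0.0126). Ndufa11 had a difference of 0.39 ± 0.08 (adjusted p = 0.0239).

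Chaperones of the endoplasmic reticulum had a positive difference in 18 of 18 members, where 60% of all genes were positive. Their median difference was 0.27. In mossy cells 13 members rose (11.6% of all genes did) and 0 fell, and in hippocampus 1 rose, near the 4.94% of all genes. Pdia3, a protein disulfide isomerase, was the 1 called with pairs, against 0.314% of all genes called higher. It had a rise of 0.52 ± 0.08 in mossy cells (adjusted p = 5.71e-05), a change of 0.13 ± 0.08 in hippocampus (adjusted p = 0.301) and a difference of 0.39 ± 0.09 (adjusted p = 0.0341). Of 15 cytosolic heat shock chaperones, 4 fell in mossy cells (5.04% of all genes) and 7 in hippocampus (8.21%), and 0 rose in either. For the difference 0 were called, near the 0.729% of all genes called with pairs. Hsp90aa1 fell by 0.24 ± 0.06 in mossy cells (adjusted p = 0.00933) and by 0.39 ± 0.06 in hippocampus (adjusted p = 0.000604), and its difference of 0.15 ± 0.07 did not pass with pairs (adjusted p = 0.287).

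Of 70 axon guidance genes, 39 rose in mossy cells (11.6% of all genes) and 14 in hippocampus (4.94%), and 0 fell in either. Their median difference was 0.24, and 0.13 without mossy-cell fluoxetine library 4, the library with the highest microglial and astrocyte markers. The guidance receptors Robo1 and Nrp2 were the 2 called with pairs, against 0.314% of all genes called higher. Each had a difference of 0.43 ± 0.09 (adjusted p = 0.0242 and 0.0298). Of 25 lysosomal proteins, 20 rose in mossy cells (11.6% of all genes) and 12 in hippocampus (4.94%), with a median difference of 0.13, or 0.04 without that library and 0.22 without hippocampal fluoxetine library 4. The saposin precursor Psap was the 1 called with pairs, against 0.314% of all genes called higher. Its difference was 0.30 ± 0.07 (adjusted p = 0.043), called in 2 of 13 fits without 1 pair and not with the GC content and length offset (adjusted p = 0.0814).

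Neuropeptide precursors were not called for the difference, as few genes were. Of 24 precursors, 7 rose in mossy cells (11.6% of all genes) and 1 in hippocampus, near the 4.94% of all genes, with median effects of 0.54 and 0.29. The median difference was 0.29 without pairs and 0.17 with pairs. For the difference 0 of the 24 were called without or with pairs, near the 0.044% and 0.729% of all genes. Without pairs 3 higher and 1 lower had an unadjusted p below 0.05, as did 1102 higher and 688 lower of all 15922 genes. Penk, the enkephalin precursor, rose by 1.12 ± 0.34 in mossy cells (adjusted p = 0.0225) and by 1.06 ± 0.34 in hippocampus (adjusted p = 0.037). Without hippocampal fluoxetine library 2, which held 67.7 CPM against 11.4 to 25.6 CPM in the other 6, the hippocampal change was 0.51 (adjusted p = 0.206). The mossy-cell call was lost without fluoxetine library 2 or 4 (0.89 and an adjusted p of 0.0717 without library 4), and the hippocampal call in 8 of 26 fits without 1 library. Fluoxetine library 2 stood apart for several of these precursors. Npy reached 1530 CPM in it in mossy cells, against 216 to 474 CPM in the other 6, and 97.1 CPM in hippocampus, against 24.0 to 44.1 CPM. Vgf, a granin-like precursor, came nearest with pairs, with 0.44 ± 0.12 (adjusted p = 0.0802), while its effect in mossy cells was 0.80 ± 0.17 (adjusted p = 0.00126). Gal, Sst, Nmb and Adcyap1 had differences with pairs of -0.23 ± 0.45, 0.27 ± 0.15, 0.28 ± 0.17 and 0.42 ± 0.27, with adjusted p from 0.408 to 0.865. Pdyn, the dynorphin precursor, lay at 0.0934 to 2.80 CPM in mossy cells and 0.691 to 2.17 CPM in hippocampus, and its difference with pairs was -0.02 ± 0.63 (adjusted p = 0.994).

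The serotonin receptors and transporter had 0 of 13 members called for the difference or for either effect. For the difference this is near the 0.729% of all genes called with pairs. The mossy-cell effect was called in 16.7% of all genes and the hippocampal effect in 13.1%. The median difference was 0.11, and 0 members had an unadjusted p below 0.05, against 1790 of all 15922 genes without pairs. Htr5b, a serotonin receptor gene, measured 2.15, 3.95 and 6.17 CPM in mossy-cell vehicle libraries and 3.83, 4.70 and 8.41 CPM after fluoxetine, with a difference of 0.06 ± 0.30 with pairs (adjusted p = 0.954). S100a10, which encodes p11, a partner of serotonin receptors, had a difference of 0.25 ± 0.13 with pairs (adjusted p = 0.4). Slc17a7, the vesicular glutamate transporter, rose by 0.99 ± 0.11 in mossy cells (adjusted p = 2.14e-06) and by 0.53 ± 0.11 in hippocampus (adjusted p = 0.00398), and its difference of 0.45 ± 0.11 did not pass with pairs (adjusted p = 0.0514). Bdnf, Drd2 and Grin1 had differences with pairs of 0.23 ± 0.12, 0.22 ± 0.21 and 0.33 ± 0.11 (adjusted p = 0.37, 0.67 and 0.174). Calb2, which encodes calretinin, a calcium-binding protein that marks mossy cells in mouse, measured 244, 330 and 370 CPM in mossy-cell vehicle libraries and 188, 322 and 487 CPM after fluoxetine, and its difference with pairs was -0.07 ± 0.17 (adjusted p = 0.902).

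**Figure D4:**
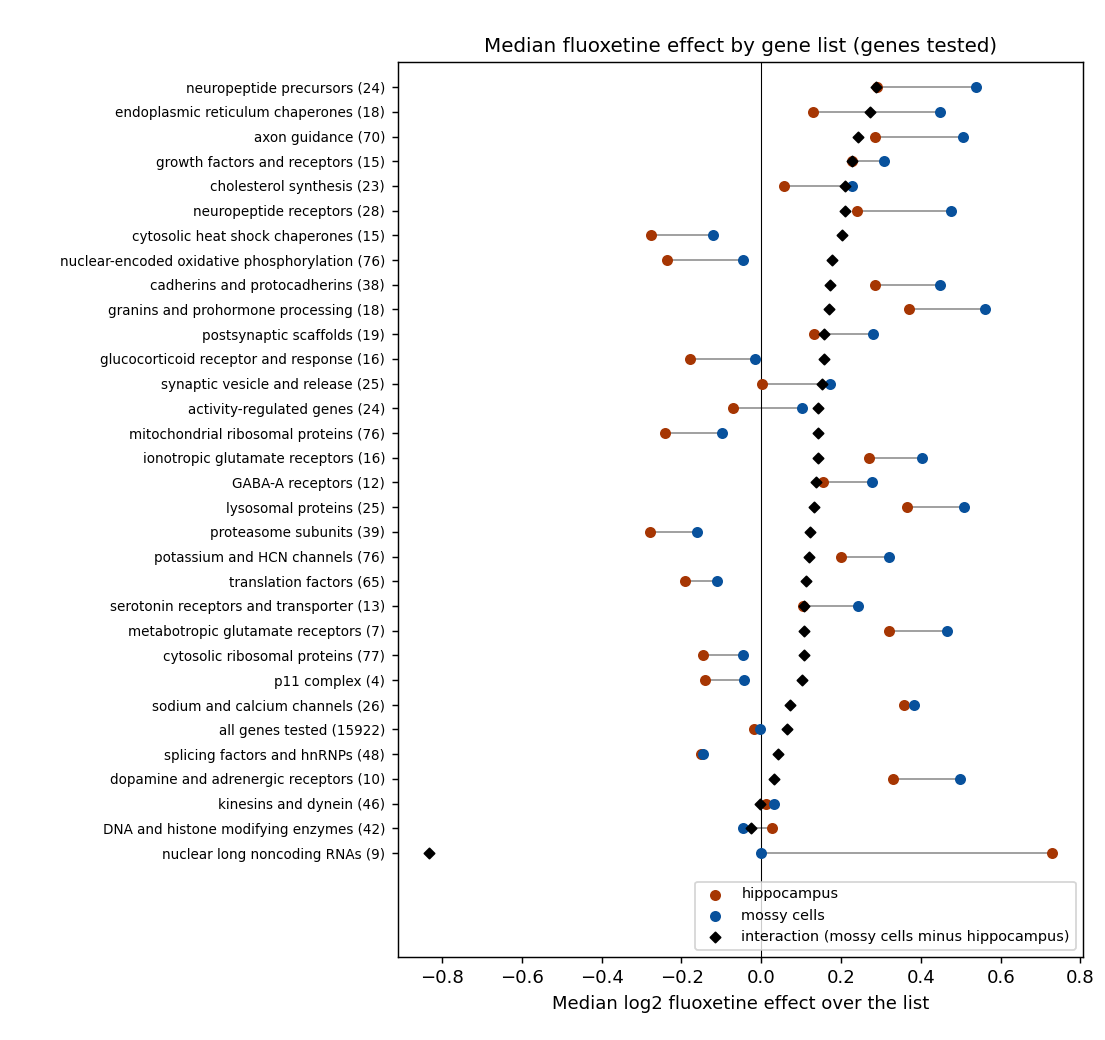
Median log2 fluoxetine effect in hippocampus and mossy cells, and median difference (diamonds), for each gene list and for all genes tested, with the number of genes tested in brackets. The nuclear long noncoding RNAs lie at a difference of -0.83, and the neuropeptide precursors, endoplasmic reticulum chaperones and axon guidance genes lie between 0.24 and 0.29; with pairs the precursors stood at 0.17, and without mossy-cell fluoxetine library 4 the axon guidance genes stood at 0.13.

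Markers of glia also differed between vehicle and fluoxetine libraries. Of all genes, 11.6% were called higher in mossy cells and 4.94% in hippocampus. The 11 microglial markers had a median effect of 2.37 in mossy cells (8 called higher) and 1.38 in hippocampus (3 called higher). The 12 oligodendrocyte markers had 0.62 and 0.00 (5 and 0 called higher). The 12 astrocyte markers had 0.58 and 0.39 (4 and 2 called higher). The 5 oligodendrocyte precursor markers had 0.97 and 0.45 (3 and 0 called higher), and summed to 19.2 to 45.5 CPM with vehicle and 29.6 to 143 CPM with fluoxetine in mossy cells. Without mossy-cell fluoxetine library 4 the median differences fell from 0.87 to 0.15 for microglia, from 0.39 to 0.01 for astrocytes, from 0.57 to 0.34 for oligodendrocytes and from 0.58 to 0.12 for oligodendrocyte precursors. None of the markers of these 4 lists was called for the difference, near the 0.729% of all genes called with pairs. At an unadjusted p below 0.05 with pairs, 1 of 11 microglial, 4 of 12 astrocyte, 5 of 12 oligodendrocyte and 1 of 5 oligodendrocyte precursor markers were higher. Of all 15922 genes tested, 1612 were higher by the same measure. None of the 12 marker lists had a marker at 0 in a whole group of libraries. Their part in the results above was not tested.

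**Figure D5:**
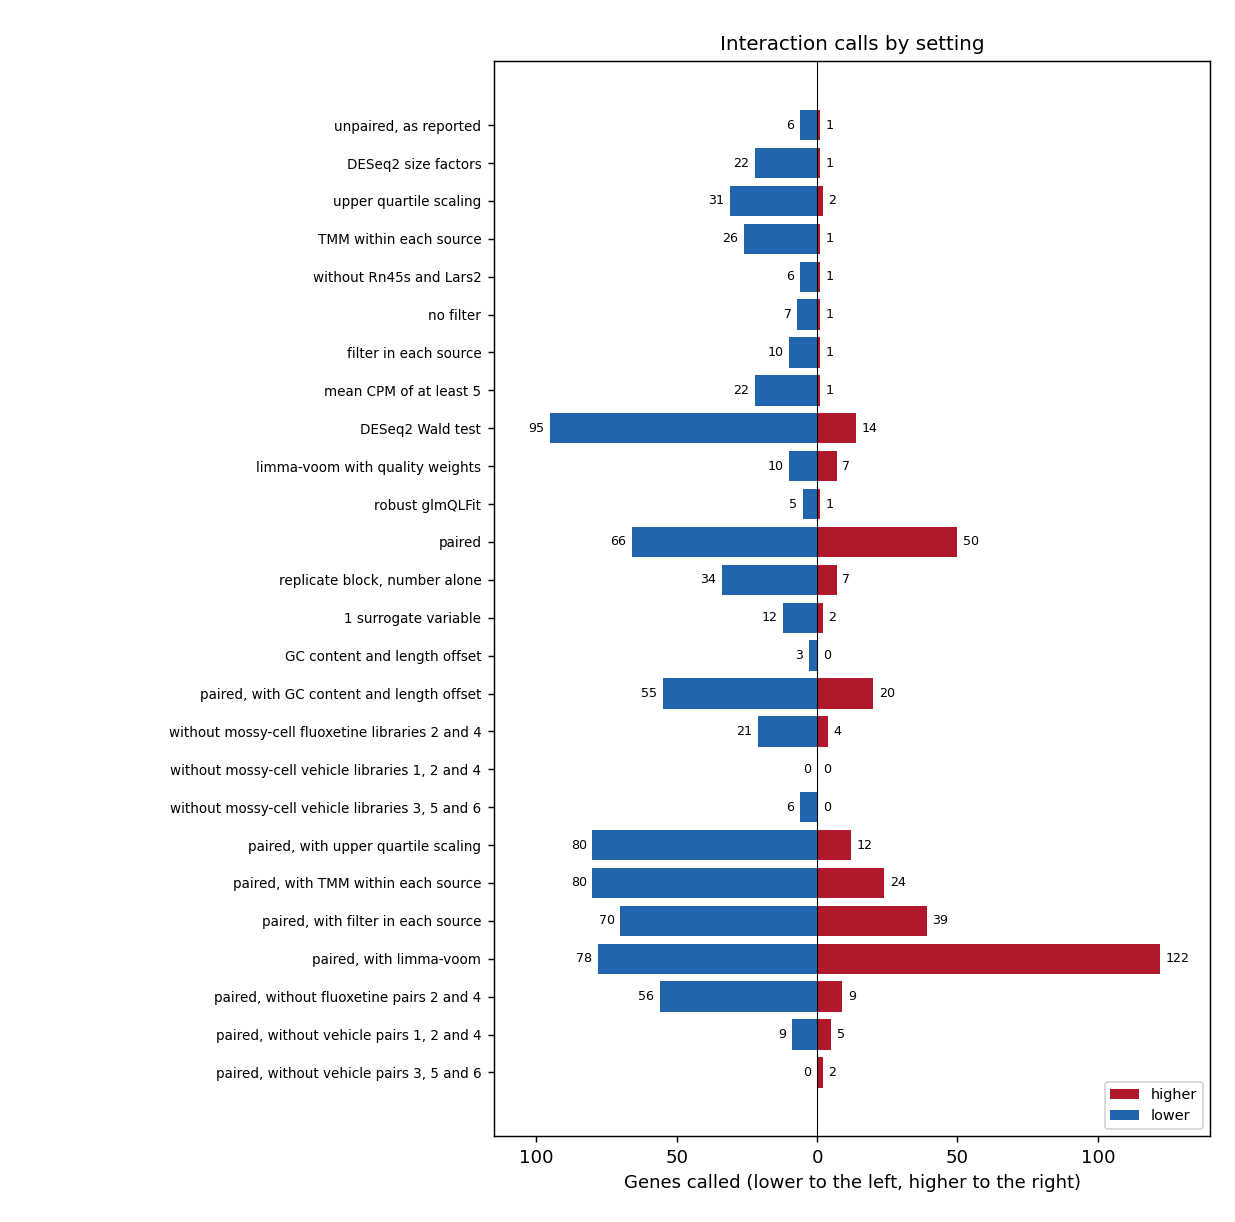
Genes called for the difference, higher to the right and lower to the left, under each way of scaling, filtering, testing or leaving out libraries. Lower calls outnumbered higher calls in most settings, and the paired count of 116 fell to 14 and 2 when 3 of the 6 vehicle pairs were left out.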

How the data were processed

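Gene-level read counts were deposited by the authors in 1 table for each source and were used as deposited, after joining 2 tables on 24485 gene symbols. The build (GRCm38) and the tools (HTSeq 0.7.2, STAR 2.5.2b, edgeR) are those that the submitters' processing notes name, and the annotation and strand setting are not given in the sources used here. Per the labels' protocols, cDNA was amplified before sequencing, so counts are not independent molecules, and intervals cover the spread between libraries only. The depth of 23.6 to 45 M counts per library sets the precision of low genes. Positions came from GENCODE M21 (22753 symbols matched directly, 919 through a RefSeq synonym).

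Groups came from the labels. 1 edgeR 4.0.16 fit in R 4.3.3 (TMM, filterByExpr, estimateDisp, glmQLFit, glmQLFTest, two-sided, Benjamini-Hochberg, threshold 0.05) over 26 libraries gave both effects and their difference, so the 2 effects subtract to the difference. Values after ± are standard errors unless SD is written. The method was checked on simulated counts with a known difference in 200 genes. These counts held no correlation between same-numbered libraries, so they cannot check how the paired fit handles it. A second fit had 1 term for each pair of same-numbered libraries (11 residual degrees of freedom), in which only the difference can be estimated. Whether numbers pair the libraries was decided before this fit was seen, from the correlation of deviations from group means between the sources. Over 7419 genes with a mean log2 CPM above 4 it exceeded 0.1 in 13 of 13 pairs (0.117 to 0.674), and over all 15922 genes in 7 of 13 (0.061 to 0.334), with the own number closest in 11 and 12 of 13. The choice of the first gene set decides the pairing. No label states that a number marks 1 animal or that libraries came from separate animals, so p-values measure the spread between these libraries.

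Genes were named by a rule (per direction the 10 with the largest difference and the 10 with the smallest p among called genes whose average log2 CPM was 3 or more and whose sign was stable, leaving out clones and predicted genes such as Rik and Gm symbols, up to 3 called members of each list, and 19 fixed genes), applied to both fits. The 3 remaining genes called without pairs were added after their values were seen. The comparison, the rule and the 43 gene lists were chosen with earlier results of these data known. Alternatives were other scalings, filters and tools (DESeq2 1.42.0, limma 3.58.1, sva 3.50.0), a GC content and length offset, and leaving out libraries.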

Additional observations from a re-analysis of the deposited data

Results flagged for a closer look

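The fluoxetine effect differed between mossy cells and hippocampus, by the test of the difference without pairs, in Ly6e (0.62), Nvl (-0.83), Srek1 (-0.80), D4Wsu53e (-0.78), Uvssa (-1.19), A130077B15Rik (-0.79) and Gm4461 (-5.07).

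Single libraries lay far from the rest of their group, by Dixon's test at the 95% level, in 35 of 292 groups of values checked, where chance gives about 1 in 20. Fluoxetine library 2 was the far library for several neuronal genes in both sources. In mossy cells it held 1530 CPM of Npy, 65.6 CPM of Gal, 43.6 CPM of Bdnf and 212 CPM of Bok. In hippocampus the library of that number held 97.1 CPM of Npy, 2.31 CPM of Gal, 64.4 CPM of Bdnf, 61.9 CPM of Bok, 67.7 CPM of Penk and 55.0 CPM of Vgf. All of these were the highest of their 7 libraries.

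Fluoxetine library 4 was the highest for Psap, at 1100 CPM in mossy cells and 502 CPM in hippocampus. It was also the highest for summed microglial markers (110 and 289 CPM), summed astrocyte markers (1960 and 7000 CPM) and, in hippocampus, oligodendrocyte precursor markers (116 CPM). In hippocampal fluoxetine library 7, Nrgn (1110 CPM), Cck (575 CPM) and Adcyap1 (4.25 CPM) were highest and Rbm5 (87.2 CPM) was lowest.

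The other far values were spread over libraries. In mossy-cell vehicle libraries they were Homer3 (23.8 CPM, highest), B3galt5 (19.1 CPM, highest), Zfp277 (41.1 CPM, highest), Nrp2 (38.9 CPM, lowest), Dcx (11.8 CPM, lowest) and the summed mossy-cell markers (489 CPM, lowest). In mossy-cell fluoxetine libraries they were Srek1 (21.0 CPM, lowest), the summed CA1 and CA2 markers (715 CPM, lowest), Pdyn (2.80 CPM, highest) and Gm4461 (0.0311 CPM, from 1 count). In hippocampus they were Ndufa8 (62.1 CPM, lowest) and Pdia3 (56.6 CPM, highest) with vehicle, and Dcx (76.8 CPM) and Gm4461 (1.25 CPM), both highest, with fluoxetine.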

How the results depend on the processing

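The count of genes called for the difference depended on the processing more than the signs did. Without pairs it was 7 (1 higher, 6 lower). It became 23 with DESeq2 size factors (22 lower), 33 with upper quartile scaling (2 higher, 31 lower), 27 with TMM within each source (26 lower), 11 with the filter in each source (10 lower), 23 with a mean CPM of at least 5 (22 lower), 109 with the DESeq2 Wald test (14 higher, 95 lower), 17 with limma-voom (7 higher, 10 lower), 14 with 1 surrogate variable (2 higher, 12 lower), 3 with the GC content and length offset (0 higher, 3 lower) and 48 at an adjusted p of 0.1 (8 higher, 40 lower). It was 25 without mossy-cell fluoxetine libraries 2 and 4 (4 higher, 21 lower), 0 without mossy-cell vehicle libraries 1, 2 and 4 (0 higher, 0 lower, with 1807 genes at an unadjusted p below 0.05) and 6 without vehicle libraries 3, 5 and 6 (0 higher).

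With the replicate block for treatment and number it was 116 (50 higher, 66 lower), and with number alone as the block 41 (7 higher, 34 lower). All further paired settings were chosen after seeing the data. These gave 75 with the GC content and length offset (20 higher, 55 lower), 92 with upper quartile scaling (12 higher, 80 lower), 104 with TMM within each source (24 higher, 80 lower), 109 with the filter in each source (39 higher, 70 lower), 200 with limma-voom (122 higher, 78 lower), 65 without fluoxetine pairs 2 and 4 (9 higher, 56 lower), 14 without vehicle pairs 1, 2 and 4 (5 higher) and 2 without vehicle pairs 3, 5 and 6 (2 higher, 0 lower). The higher share of the paired calls thus fell under other scalings. Each of the 116 kept its sign in every setting that tested it except number alone as the block, where 115 did (the gene Ttr became -0.074). These settings reuse the libraries that chose the 116 genes, so the kept signs are no independent support.

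Leaving out 1 library gave 2 to 41 genes without pairs (0 to 11 higher, 2 to 30 lower). The count was 2 without hippocampal vehicle library 1, 2, 3 or 5 or hippocampal fluoxetine library 1, 3, 5 or 6, 3 without mossy-cell vehicle library 3 or 4 or hippocampal vehicle library 6, and 4 without mossy-cell vehicle library 5 or 6. It was 41, 15 and 19 without mossy-cell fluoxetine library 1, 3 or 4, 20 without mossy-cell vehicle library 2, 12 without hippocampal vehicle library 4, and 25 and 30 without hippocampal fluoxetine library 4 or 7. Leaving out 1 pair gave 39 to 388 (6 to 237 higher, 32 to 151 lower), with 388 without fluoxetine pair 7, 44, 39 and 40 without vehicle pair 3, 5 or 6, 75 without vehicle pair 4, and 52, 66 and 45 without fluoxetine pair 2, 5 or 6. The cause of these moves was not tested.

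The effect in mossy cells was called in 2656 genes, 2068 to 3237 without 1 library, 1071 without vehicle libraries 1, 2 and 4, 1519 without vehicle libraries 3, 5 and 6, and 1325 with mossy cells fitted alone. That in hippocampus was called in 2093, 833 to 2637 without 1 library (1207 and 833 without vehicle library 1 or 2, 1382 and 1167 without fluoxetine library 2 or 4), 4926 with limma-voom, 4705 with hippocampus fitted alone and 3345 at an adjusted p of 0.1. Among the genes named, the gene Penk reversed sign with upper quartile scaling (-0.006), the GC content and length offset (-0.026), without mossy-cell fluoxetine libraries 2 and 4 (-0.48) and without vehicle libraries 3, 5 and 6 (-0.037), and ranged from -0.18 to 0.61 without 1 library or pair. The gene Npy reversed without mossy-cell fluoxetine libraries 2 and 4 (-0.21) and ranged from -0.27 to 0.68 without 1 library or pair, the gene Gal ranged from -0.95 to 0.53, and the gene Drd2 reversed with pairs without vehicle pairs 1, 2 and 4 (-0.012). The gene Pdyn (0.351) became -0.017 with pairs, and with pairs -0.062 with the GC content and length offset, -0.072 with upper quartile scaling, -0.061 with TMM within each source, -0.005 with the filter in each source, -0.639 without fluoxetine pairs 2 and 4 and -0.651 without vehicle pairs 3, 5 and 6. It was -0.190 without vehicle libraries 3, 5 and 6 and ranged from -0.508 to 0.711 without 1 library or pair. The gene Htr5b (0.022) became -0.013 with DESeq2 size factors and with the DESeq2 Wald test, -0.034 with upper quartile scaling, -0.019 with TMM within each source, -0.091 with 1 surrogate variable, -0.041 with the GC content and length offset (-0.006 with pairs as well), -0.096 without vehicle libraries 3, 5 and 6 and -0.277 without the pairs of those numbers, and ranged from -0.118 to 0.282 without 1 library or pair. The gene Calb2 (-0.024) became 0.112 without mossy-cell fluoxetine libraries 2 and 4 (0.083 with pairs) and 0.051 without vehicle libraries 3, 5 and 6 (0.009 with pairs), and ranged from -0.181 to 0.071 without 1 library or pair. None of these 7 was called for the difference in any of those settings. Genes under a few CPM, such as Gm4461, Uvssa and Wsb1 in mossy cells, are limited by depth.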
